A study of Bos taurus with 2 samples.

Results

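The pericentromere on the short-arm side of the cattle Y chromosome was taken as the 1 Mb from 13120001 to 14120000 of chromosome Y in the ARS-UCD2.0 assembly, which ends just before the bins of the centromeric array that start at 14125001. It was divided into bins of 5 kb, and a bin was kept if it lay wholly inside the interval and held at least 5 CpGs, each covered by at least 10 PacBio reads. All 200 bins met this rule, of 11882 bins on the whole chromosome, and the rule itself uses positions and read depth. They held 48214 CpGs, or 4.94% of the PacBio CpGs of the chromosome, of which 47901 had at least 10 reads.

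The values come from lung DNA of the male F1 cross of a Wagyu sire and a Charolais dam, a fetus whose Wagyu-derived Y chromosome the study assembled. PacBio HiFi and Oxford Nanopore Technologies (ONT) long reads gave 1 library each. The only groups are therefore the platforms, no test across samples could be made, and an SD given below describes the spread over neighbouring bins or CpGs of 1 chromosome, not over animals. The PacBio level is the percent methylation score per CpG with both strands combined, whereas the ONT values are percentages for the strands apart, with unknown depth. Averaging the pair of ONT rows at a CpG gave its ONT level, and the row of lower coordinate is called the plus row and the other the minus row, as if each were listed at its own cytosine.

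The pericentromere is the chromosome segment that flanks the centromere, where the kinetochore assembles. It is commonly built of satellite DNA, short units repeated head to tail in long arrays, mixed with segmental duplications and pseudogenes. In mammals, the cytosines of CpG dinucleotides are the main targets of DNA methylation, and satellite arrays of somatic cells are typically heavily methylated. Reads from near-identical copies can be placed on the wrong copy, and how far this touched the values below was not tested.

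The region did not pass once from sparse to CpG-dense sequence but alternated between them. A bin was called dense if it held at least 149.5 CpGs, which is 0.5 times the centromere median of 299 CpGs per bin. By this rule 140 of the 200 bins (70%) were dense, beside 14.2% of all bins of the chromosome, and they formed 2 unbroken blocks. A distal sparse stretch of 65 kb (13 bins) ran from 13120001 to 13185000 with a median of 32 CpGs per bin. Block 1 covered 445 kb (89 bins) from 13185001 to 13630000 with a median of 345 CpGs per bin. A middle sparse stretch of 120 kb (24 bins) with a median of 35 CpGs per bin followed up to 13750000. Block 2 covered 255 kb (51 bins) from 13750001 to 14005000 with a median of 307 CpGs per bin. A proximal sparse stretch of 115 kb (23 bins), again with a median of 35 CpGs per bin, ended at 14120000. The medians of both blocks were thus above that of the centromere, in block 2 by only a few CpGs.

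The methylation level followed these stretches on both platforms. On PacBio, the mean bin level was 39.8% ± 8.92 (SD over 13 bins) in the distal sparse stretch, 82.2% ± 2.20 (89 bins) in block 1 and 44.6% ± 10.6 (24 bins) in the middle sparse stretch. It was 80.6% ± 2.63 (51 bins) in block 2 and 44.1% ± 11.7 (23 bins) in the proximal sparse stretch. The sparse and dense bins did not overlap on PacBio, since the highest sparse bin had 66.4% and the lowest dense bin 69.0%. Elsewhere the same classes overlapped. In the 1 Mb on the long-arm side of the centromere, sparse bins reached 72.8% and dense bins went down to 64.6%. In the rest of the male-specific region, the MSY, outside the centromere these values were 96.0% and 5.18%. The MSY is the part of the Y that does not recombine with the X. On ONT, the means of the stretches of the pericentromere were, in the same order, 32.6% ± 7.15, 59.4% ± 2.57, 35.7% ± 8.45, 59.0% ± 3.92 and 34.7% ± 8.20. There the sparse and dense bins overlapped narrowly, with a highest sparse bin of 54.0% and a lowest dense bin of 52.4%. The dense bins were thus higher than the sparse bins by 38.3 percentage points on PacBio and by 24.6 points on ONT. Over all 200 bins the means were 70.1% and 51.9%.

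**Figure D1:**
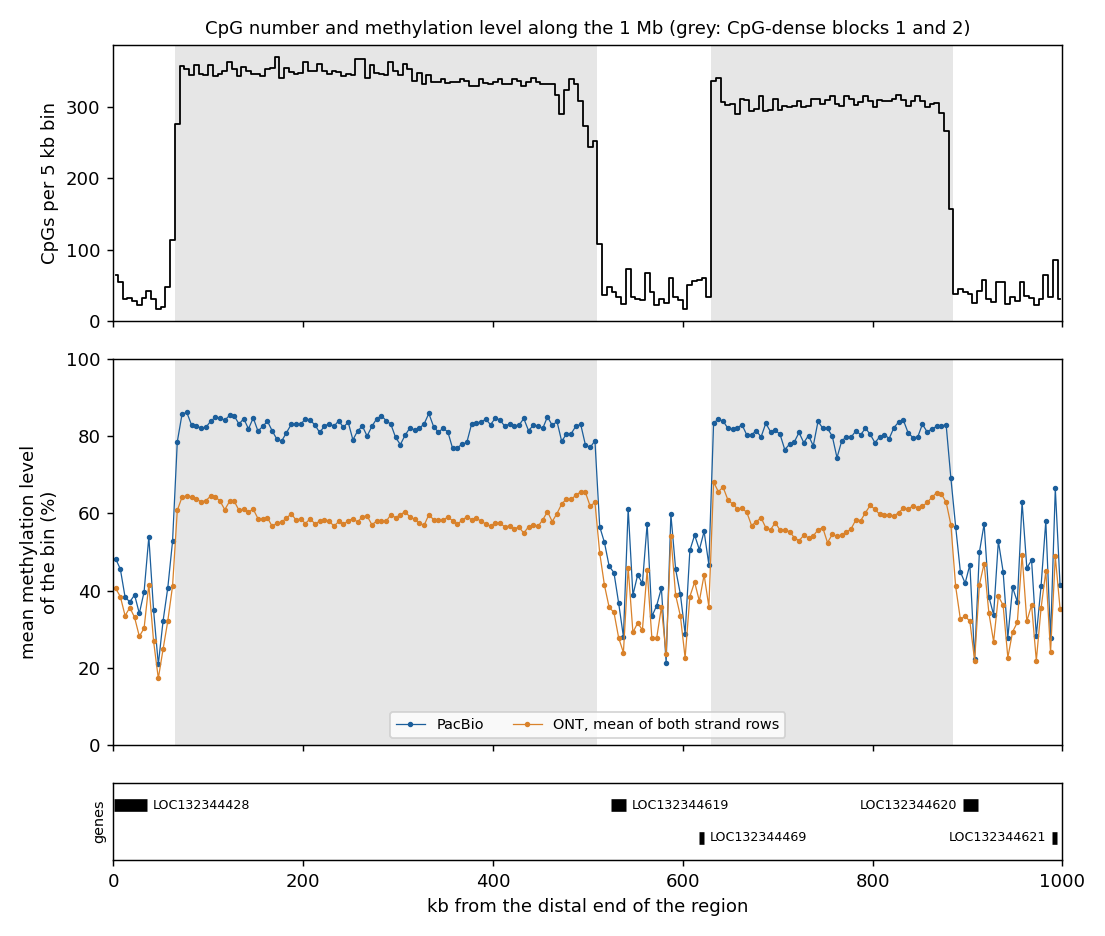
Number of CpGs per 5 kb bin (top), mean methylation level of each bin in percent on PacBio and ONT (middle) and the 5 genes of the gene table (bottom), against the distance in kb from the distal end of the region, with the CpG-dense blocks in grey. PacBio levels lie between 69.0% and 86.1% in the blocks and between 20.9% and 66.4% in the sparse stretches. The ONT level of the blocks averages 63.9% within 25 kb of an edge and 57.4% from 100 to 200 kb. The last bin of block 2 lies lower than its neighbours inside the block, at 57.0%.

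The changes at the 4 edges took from 1 to 3 bins. At the distal edge of block 1, the last 3 sparse bins held 19, 48 and 114 CpGs with PacBio levels of 32.1%, 40.8% and 52.7%, and the first 2 bins of the block held 276 and 358 CpGs with levels of 78.5% and 85.6%. The level thus already stood higher in the last sparse bin, which was itself richer in CpGs. At the proximal edge of block 1, the last block bin held 253 CpGs at 78.7% and the next bins 108 and 36 CpGs at 56.5% and 52.4%. The distal edge of block 2 was the sharpest, from 33 CpGs at 46.7% to 336 CpGs at 83.4% in neighbouring bins. At its proximal edge, bins of 266, 157 and 37 CpGs had 82.8%, 69.0% and 56.6%. When the CpG counts were divided into the 2 stretches with the least squared deviation, the single change fell at 14005001, the proximal edge of block 2. That position is a description of the CpG count only, and the 5 stretches were chosen after the profile had been seen.

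The blocks were set beside the centromeric array. The 504 bins of the centromere had a PacBio mean of 80.6% ± 2.99, which was 1.60 points below block 1 and equal to block 2 at this precision. Their ONT mean was 55.5% ± 2.90, and the blocks stood 3.89 points (block 1) and 3.45 points (block 2) above it. The 902 bins past the same CpG threshold elsewhere in the MSY, outside the centromere, had 75.5% ± 6.28 on PacBio and 68.0% ± 5.61 on ONT. Compared with those, the 140 dense bins of the pericentromere were 6.09 points higher on PacBio and 8.73 points lower on ONT. The groups were not matched for density, since those bins had a median of 215 CpGs and the dense bins of the pericentromere 334.5 CpGs.

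The platforms therefore stood far apart in the blocks. ONT minus PacBio was -22.8 ± 3.32 points in block 1 and -21.6 ± 3.54 points in block 2, against -7.20 ± 3.0, -8.91 ± 3.85 and -9.45 ± 4.49 points in the distal, middle and proximal sparse stretches. A difference of at least 20 points below PacBio was found in 102 of the 200 bins (51%), all in the blocks, beside 10.4% of all bins of the chromosome and 94% of those of the centromere. ONT was lower than PacBio in 199 of the 200 bins, beside 11618 of the 11882 bins of the chromosome. By CpGs it was lower at 91.1%, beside 80.4% on the chromosome. The exception among the 200 bins was the bin from 13700001 to 13705000, where 25 CpGs had 21.4% on PacBio and 23.6% on ONT.

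The levels of the platforms also correlated less in the blocks, where the levels themselves varied less. Over single CpGs the correlation of the PacBio and the ONT level was 0.861 in the sparse bins (n = 2495) and 0.467 in the dense bins (n = 45406). The SD over these CpGs on PacBio was 27.3 points in the sparse and 16.1 points in the dense bins. The same correlation was 0.462 in the centromere and 0.727 in the dense bins elsewhere in the MSY outside the centromere. Over bins it was 0.948 for the 60 sparse bins, 0.0339 for the 89 bins of block 1 and 0.473 for the 51 bins of block 2. These are descriptions, because neighbouring CpGs share reads and base composition. The spread of the bin levels also differed, with an SD on PacBio of 10.7 points over the sparse bins and 2.48 points over the dense bins.

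The strand rows of ONT differed in the blocks and hardly at all between them. In block 1 the plus row had a mean of 49.7% ± 4.60 and the minus row 69.1% ± 1.83, a gap (minus row minus plus row) of 19.4 ± 4.76 points. In block 2 the rows had 51.4% ± 5.58 and 66.6% ± 3.15, a gap of 15.2 ± 4.53 points. The gap was 2.56 ± 2.45, 0.780 ± 3.40 and -1.71 ± 3.48 points in the distal, middle and proximal sparse stretches. The minus row was the higher one in each of the 140 dense bins and in 30 of the 60 sparse bins. On the whole chromosome it was higher in 6978 of 11882 bins, and in the centromere in all 504. Of the 902 dense bins elsewhere in the MSY outside the centromere, 548 had the minus row higher.

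A gap of at least 20 points in either direction was found in 54 of the 200 bins (27%), beside 8.29% of all bins of the chromosome and 31.3% of the bins of the centromere. Of these bins 50 lay in block 1 and 4 in block 2, always with the minus row higher. The 3 widest gaps, 26.7, 26.2 and 25.5 points, belonged to block 1 bins starting at 13440001, 13555001 and 13435001, with 44.0%, 43.4% and 45.6% on the plus row and 70.7%, 69.6% and 71.2% on the minus row. The 3 bins in which the plus row stood highest above the minus row were sparse bins starting at 14060001, 14050001 and 14030001, by 8.08, 6.79 and 6.45 points. The 902 bins past the same threshold elsewhere in the MSY outside the centromere, which held fewer CpGs, had a mean gap of 0.755 ± 2.94 points, and the centromere had 17.6 ± 4.56 points. Of those 902 bins 0 had a gap of at least 20 points in either direction. Among the 8914 sparse bins there, the minus row was higher by this much in 486 and the plus row in 287. The 1 Mb on the long-arm side of the centromere, included there, had 16 and 14 such bins of 200, all sparse. Exact zeros, which in this file may stand for missing calls, made up 1.18% of the plus rows and 0.0198% of the minus rows in the dense bins of the pericentromere.

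**Figure D2:**
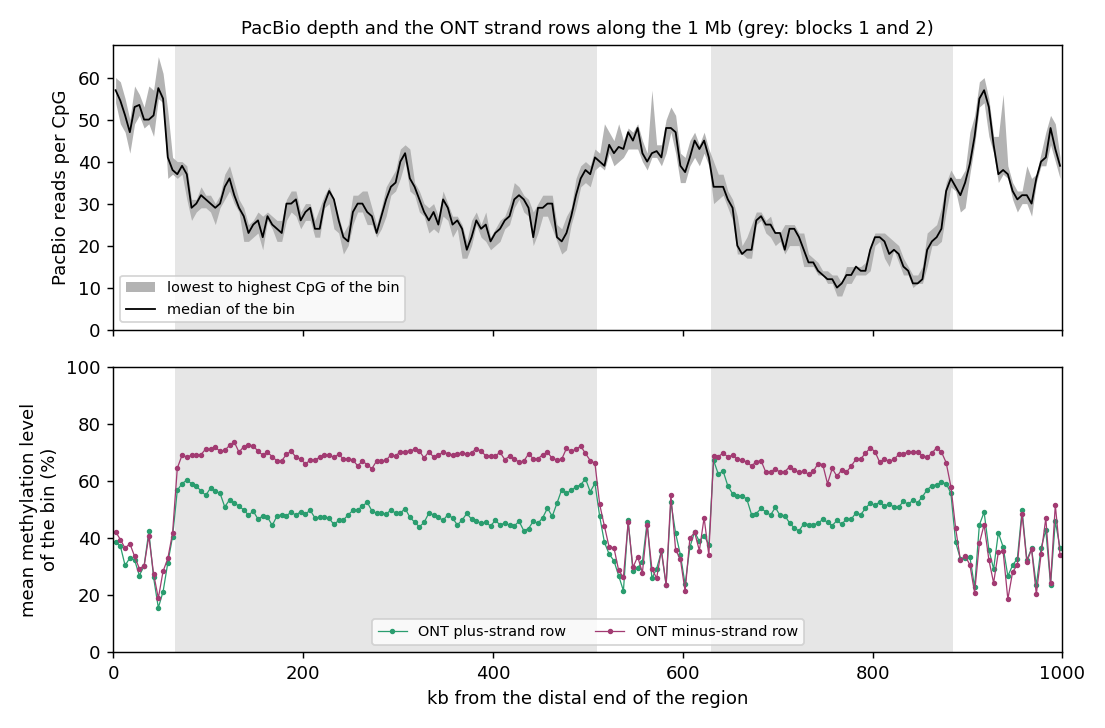
PacBio reads per CpG (top, line for the bin median and band from the lowest to the highest CpG of the bin) and mean level of the ONT plus-strand and minus-strand rows in percent (bottom) for each 5 kb bin, against the distance in kb from the distal end of the region, with blocks 1 and 2 in grey. The rows part at the block edges, with block means of 49.7% and 69.1% in block 1 and 51.4% and 66.6% in block 2, and the depth has its lowest point inside block 2.

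The gap was narrower at the block edges than inside. For the 20 bins within 25 kb of an edge in either block, the gap averaged 9.14 ± 3.40 points, and for the 20 bins from 25 to 50 kb it averaged 15.1 ± 2.56 points. From 50 to 100 kb and from 100 to 200 kb it was 22.2 ± 1.93 points (20 bins) and 21.7 ± 2.72 points (40 bins) in block 1, and 17.2 ± 2.31 points (20 bins) and 18.1 ± 2.17 points (11 bins) in block 2. The 9 bins of block 1 more than 200 kb from an edge had 18.3 ± 2.66 points, so the order did not continue to the centre.

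The plus row was lower in the interior than at the edge in both blocks. Over the first 4 distance classes it averaged 58.7%, 55.1%, 47.6% and 47.2% in block 1 and 59.9%, 53.0%, 49.2% and 45.9% in block 2, and in the 9 bins of block 1 beyond 200 kb it was 49.6%. The minus row averaged 68.7%, 70.0%, 69.9% and 68.9% in block 1, and 68.2%, 68.3%, 66.4% and 64.0% in block 2, where it too was lower in the interior. PacBio averaged 81.4%, 82.4%, 83.2% and 82.0% in block 1 and 81.4%, 81.1%, 80.4% and 79.9% in block 2. The narrower gap was found on both sides of block 1, with gaps within 25 kb of the edge of 9.30 points at the distal side and 10.7 points at the proximal side (5 bins each). In block 2 these gaps were 7.53 and 8.97 points. The first bin of block 2 had almost no gap, with 67.3% on the plus row and 68.7% on the minus row, and was also the bin with the highest ONT level of the region, 68.0%. The ends of the centromere were unlike in this respect. At its distal end the gap averaged 12.8 points within 25 kb (5 bins), 21.9 points from 25 to 50 kb (5 bins) and 21.2 points from 50 to 100 kb (10 bins), with 20.7 points over the 212 bins beyond 200 kb. At its proximal end it was 17.9 points within 25 kb (5 bins), 20.2 points from 25 to 50 kb (5 bins), 17.2 points from 50 to 100 kb (10 bins) and 14.1 points over the 212 bins beyond 200 kb.

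PacBio depth differed between the distance classes too. The median of the bin depths was 34 reads within 25 kb of a block edge and 21.5, 24.5 and 25 reads in the next 3 classes. It was 31 reads in the 9 bins of block 1 beyond 200 kb. Within block 1, CpGs with 20 to 29 reads had a gap of 20.6 points and those with 30 to 39 reads 18.1 points. Within block 2 the gap was 17.9 points at 10 to 14 reads, 15.7 points at 20 to 29 reads and 5.71 points at 30 to 39 reads. PacBio depth is not ONT depth, and its part in the gap was not tested.

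**Figure D3:**
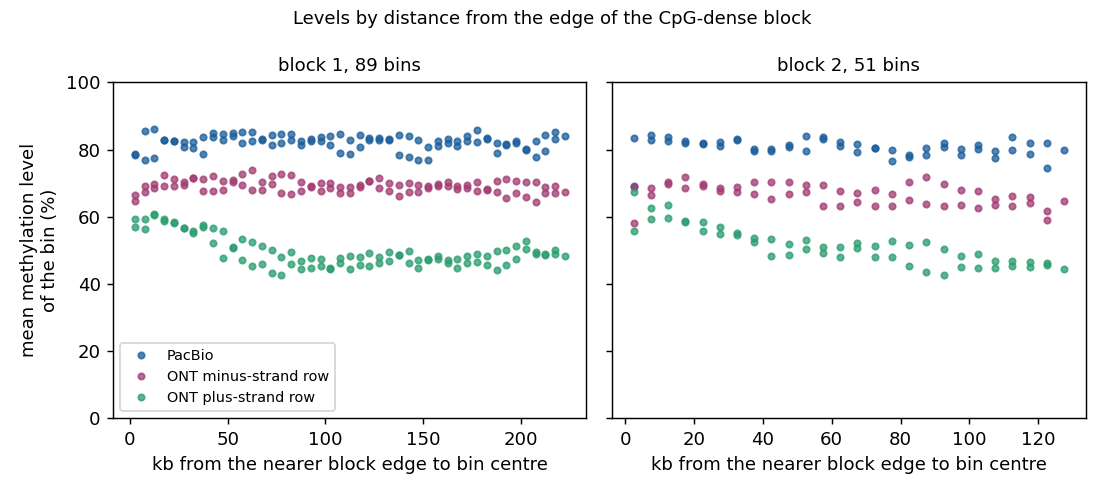
Mean methylation level in percent of each 5 kb bin of block 1 (left) and block 2 (right) on PacBio and on the ONT minus-strand and plus-strand rows, against the distance in kb from the nearer block edge to the bin centre. The plus row averages 59.3% within 25 kb of an edge and 46.9% from 100 to 200 kb over both blocks, while PacBio averages 81.4% and 81.5% there.

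The read depth of PacBio was lower in the blocks. The median per CpG was 50 reads in the distal, 43 in the middle and 39 in the proximal sparse stretch, 28 in block 1 and 19 in block 2. Dense over sparse bins gave a ratio of 0.605. Relative to the median of 41 reads over the MSY outside the centromere, the sparse bins stood at 1.05, block 1 at 0.683, block 2 at 0.463 and the centromere at 0.585.

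Depth varied along the blocks as well. The bin medians ranged from 19 to 42 reads in block 1 and from 10 to 36 reads in block 2. A median under 20 reads was found in 29 bins (14.5%), of which 28 lay in block 2 and 1 in block 1, beside 1.14% of all bins of the chromosome and 17.9% of the bins of the centromere. The 313 CpGs of the region with fewer than 10 reads all lay between 13881755 and 13888986 in block 2, and they were 75.2% of the 416 such CpGs on the chromosome. In this window of 7232 bp the 439 CpGs had 8 to 11 reads each. The CpGs under 10 reads had 76.0% on PacBio, 45.1% on the ONT plus row and 64.3% on the minus row, each lower than the block 2 means of 80.6%, 51.4% and 66.6%. This window lies in the interior of block 2. The 11 bins there from 100 to 200 kb from an edge had means of 79.9%, 45.9% and 64.0%.

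The precision of a single CpG depended on its depth and its level. A CpG of block 1 with the median of 28 reads and 25 modified reads had a 95% Wilson interval from 72.8% to 96.3%. One of block 2 with 17 modified of 19 reads had 68.6% to 97.1%, and one in the shallow window with 8 of 9 reads had 56.5% to 98.0%. In the sparse stretches, where levels were intermediate, intervals were as wide at higher depth, from 36.6% to 63.4% for 25 modified of 50 reads in the distal stretch and from 36.2% to 66.1% for 20 of 39 reads in the proximal stretch. These intervals cover counting error only, and the counts are those estimated by the authors' tool. Differences between single CpGs within these intervals were therefore not detectable at this depth.

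Both blocks carried a repeating pattern of CpG positions. In block 1 the distance found between most pairs of CpGs, among all distances from 20 bp to 20 kb, was 1683 bp, shared by 8470 pairs, where a typical distance (the median) had 2010. The next were 3366 bp, which is exactly 2 such steps, then 7308 bp, 5623 bp and 2268 bp. In block 2 the leading distances were 5502 bp, shared by 2814 pairs where the median was 898, then 7342 bp, 3655 bp, 1756 bp and 11003 bp. In the first part of the centromere, of the same length as block 1, the leading distance was 1684 bp, shared by 31124 pairs where the median was 2331, so the step of block 1 was within 1 bp of the centromere's but was kept by fewer pairs.

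**Figure D4:**
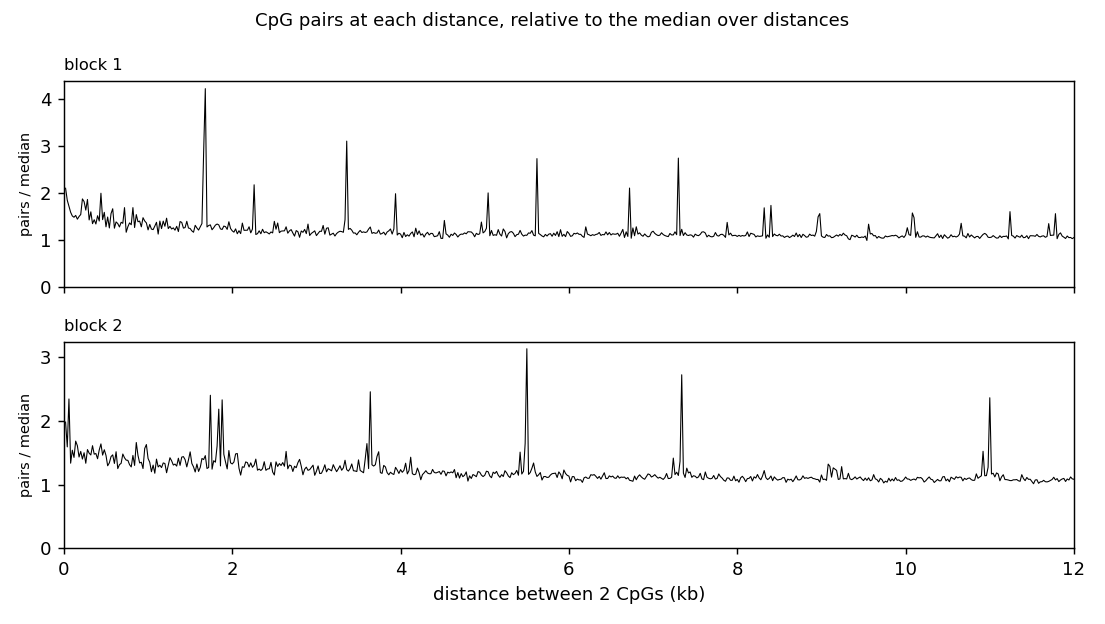
Number of CpG pairs at each distance divided by the median over distances (vertical axis; the highest value of each 20 neighbouring distances is drawn), against the distance between the CpGs in kb, for block 1 (top) and block 2 (bottom). Block 1 shows its highest line at 1683 bp and block 2 at 5502 bp, with further lines at longer distances.

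CpGs at the leading distance of a block had more alike values than CpGs at other distances. For pairs of CpGs 1683 bp apart in block 1, the correlation was 0.535 for the PacBio level, 0.678 for the ONT level and 0.532 for the strand gap (8470 pairs). At the 532 other distances examined, with ordinary pair numbers, the median correlation of the gap was 0.0169. For pairs 5502 bp apart in block 2, the correlations were 0.549, 0.651 and 0.639 (2788 pairs), against a median of 0.0155 for the gap at other distances. The other leading distances gave lower correlations, down to 0.331 for the PacBio level at 2268 bp in block 1 and 0.158 at 1756 bp in block 2. In the first part of the centromere, pairs 1684 bp apart had 0.650, 0.804 and 0.696. Pairs at these distances may also share their surrounding sequence, whose part in the likeness was not tested.

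In the sparse stretches the level went with the number of CpGs. The 15 bins with 5 to 29 CpGs had a PacBio mean of 31.4% ± 6.69, the 28 bins with 30 to 49 CpGs 42.7% ± 6.34 and the 17 bins with 50 to 149 CpGs 54.9% ± 5.92. On ONT these means were 26.0%, 33.8% and 43.6%. Over the 60 sparse bins the correlation of CpG number and PacBio level was 0.743 (Pearson) and 0.855 (Spearman), again a description over neighbouring bins. The classes of the 1 Mb on the long-arm side of the centromere had PacBio means of 31.1%, 41.3% and 60.1%, and those of the rest of the MSY outside the centromere 43.6%, 47.7% and 60.0%.

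The same held for single CpGs and their nearest neighbour. In the sparse bins, CpGs with another CpG within 10 bp had 68.5% on PacBio and 55.8% on ONT (562 CpGs). Those with a nearest neighbour at 11 to 50 bp had 46.9% and 36.9% (1071 CpGs), and those at 51 to 200 bp had 34.5% and 27.1% (720 CpGs). The 142 CpGs more than 200 bp from any other had 27.6% on PacBio and 21.5% on ONT. In the dense bins, CpGs with a neighbour within 10 bp had 86.1% and 63.9% (30814 CpGs), and those at 11 to 50 bp had 72.8% and 49.6% (14542 CpGs). In both of these spacing classes the dense bins were thus higher than the sparse bins on both platforms. The 50 CpGs of dense bins with a nearest neighbour at 51 to 200 bp had 30.7% and 22.5%, below the sparse bins.

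Single sparse bins showed how uneven these stretches were. Among bins with at least 20 CpGs the lowest on PacBio were those starting at 13700001 with 21.4% ± 18.4 (SD over 25 CpGs), at 14025001 with 22.2% ± 18.5 (25 CpGs) and at 14105001 with 27.6% ± 19.96 (33 CpGs). The lowest on ONT were those starting at 14025001, 14090001 and 14060001 with 21.9%, 21.9% and 22.7%. The fewest CpGs of a bin, 16, were found in the bins starting at 13165001, with 20.9% on PacBio and 17.3% on ONT, and at 13720001, with 28.9% and 22.6%. The first bin of the region had 48.3% and 40.6%, and the last bin had 41.4% and 35.3%. The highest PacBio levels were those of the block 1 bins starting at 13195001 (86.1%), 13450001 (85.8%) and 13190001 (85.6%). The highest ONT levels were those of the first 3 bins of block 2, with 68.0%, 65.6% and 66.7%.

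Most of the middle sparse stretch and the proximal sparse stretch matched one another in their CpG positions. Of the 929 CpGs between 13633603 and 13748574, 912 (98.2%) had a counterpart 371421 to 371457 bp further on, and these were 98.6% of the 925 CpGs from 14005060 to 14119997. Of the 1036 CpGs of the whole middle stretch 88.0% were matched, with 97 lying before and 10 after the matched window. The match kept the order of the CpGs by construction and consisted of 19 runs of constant distance over 115 kb. The match reached the end of the proximal stretch, which is the border set for the region.

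The copies had closely similar methylation. The mean over the 912 CpGs was 47.3% in the middle and 47.7% in the proximal copy on PacBio, with a difference (proximal minus middle) of 0.379 ± 13.4 points (SD over CpGs). On ONT the means were 37.7% and 37.2%, with a difference of -0.489 ± 8.44 points. The level of a CpG in one copy correlated with that in the other at 0.882 on PacBio and 0.930 on ONT. In steps of 20 kb along the copies, the PacBio means differed by at most a few points, for example 45.3% and 47.4% in the first step (158 CpGs) and 51.6% and 52.8% in the last (147 CpGs). On the estimated counts, the SD of the difference was 13.9 points, whereas counting error alone would give 9.08 points.

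Differences of single CpGs between the copies were little shared by the platforms. On PacBio 29 of the 912 CpGs were at least 30 points apart, and 17 of these differed in the same direction on ONT, while over all matched CpGs 51.4% (469) did. Over all matched CpGs the differences of the platforms correlated at 0.0993. Ranked by the smaller of its PacBio and ONT differences, among CpGs that differed in the same direction on both, the first CpG was at 13670258 in the middle copy, with 58.1% on PacBio and 34.6% on ONT, and at 14041705 in the proximal copy, with 10.8% and 6.51%. Its estimated counts were 24 modified of 43 reads (95% Wilson interval 41.1% to 69.6%) and 5 of 55 reads (3.95% to 19.6%), and it was picked for its difference among the 912 CpGs. Other CpGs differed more on a single platform.

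**Figure D5:**
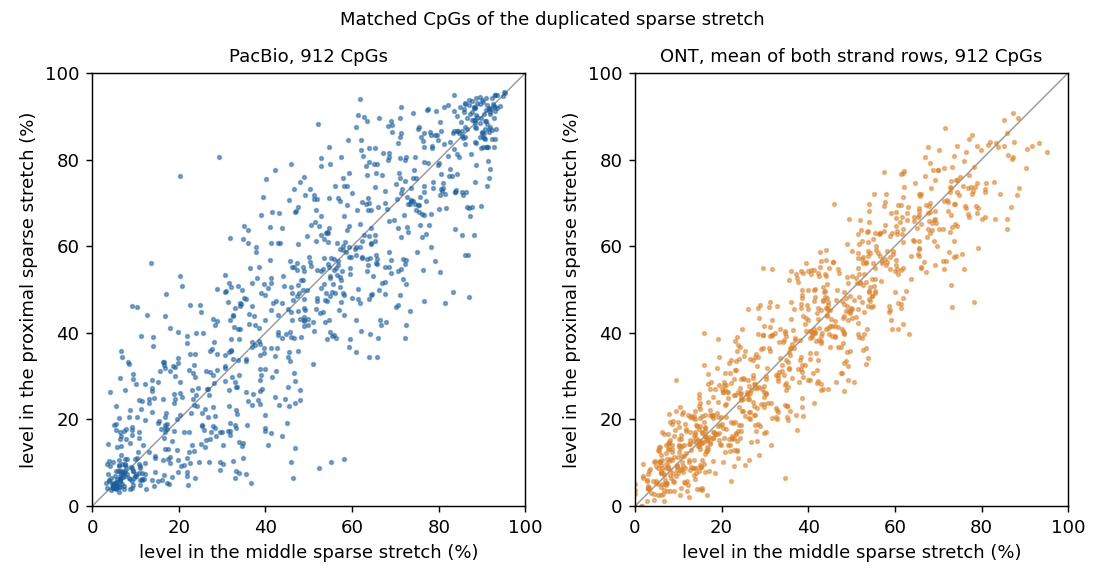
Methylation level in percent of each of the 912 matched CpGs in the middle sparse stretch (horizontal axis) and in the proximal sparse stretch (vertical axis) on PacBio (left) and ONT (right), with the line of equal levels. Points follow the line on both platforms, with correlations of 0.882 and 0.930 and the points scatter more widely on PacBio.

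All 5 genes of the region in the RefSeq gene table, of 335 on chromosome Y, lay in the sparse stretches. They touched 21 of the 60 sparse bins, and no dense bin touched a gene. How often dense or sparse bins elsewhere on the chromosome touch a gene was not counted. LOC132344428 is a pseudogene of 34142 bp from 13121234 to 13155375 in the distal stretch. The study's annotation names the same interval as an EIF1AX pseudogene, after a gene for a translation initiation factor. Over its 256 CpGs the level was 42.0% ± 27.8 (SD over CpGs) on PacBio and 35.4% ± 22.0 on ONT, with 54.0% within 1 kb of its lower end and 64.2% within 1 kb of its upper end on PacBio. Both ends thus stood above the mean of the gene.

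The other 4 genes formed 2 pairs, 1 member in each copy. LOC132344469, from 13737069 to 13742464, and LOC132344621, from 14108493 to 14113886, are protein-coding, and their starts lay 371424 bp apart. The study's annotation names both intervals PRAME, on the plus strand. PRAME genes form a family known for expression in testis and in tumours, with copies on the bovine Y. LOC132344469 had 62.5% ± 25.2 on PacBio and 46.6% ± 24.3 on ONT (84 CpGs), and LOC132344621 had 62.7% ± 26.8 and 46.9% ± 22.7 (85 CpGs). Within 1 kb of the lower end, which is the start of a plus-strand gene, the levels were 27.2% ± 20.5 and 24.1% ± 19.5 on PacBio and 18.4% ± 19.4 and 23.4% ± 18.4 on ONT (14 CpGs each). At the upper end PacBio gave 58.5% ± 23.7 (29 CpGs) and 66.4% ± 22.9 (30 CpGs). Both copies thus had a lower level around the start than over the gene, on both platforms.

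The second pair consists of LOC132344619, a transcribed pseudogene from 13644022 to 13660081, and LOC132344620, a pseudogene from 14015536 to 14031531. LOC132344619 had 38.7% ± 20.6 on PacBio and 29.9% ± 16.7 on ONT (106 CpGs), and LOC132344620 had 38.1% ± 21.3 and 30.3% ± 17.1 (105 CpGs). Within 1 kb of the lower end the PacBio levels were 52.7% ± 22.5 and 52.2% ± 21.1 (14 CpGs each), and within 1 kb of the upper end 46.1% ± 25.1 (12 CpGs) and 44.8% ± 21.5 (11 CpGs). Both were lower over their length than around either end. The median depth over the genes was 39 to 53 reads per CpG, and since the members of a pair are near-identical in CpG positions, how far reads were shared between members was not tested.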

How the data were processed

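As deposited, the PacBio values are, per CpG, a methylation score in percent, a read count (depth), and estimated counts of reads called modified or not, all made by the authors with Primrose, pbmm2 and the model-based mode of aligned_bam_to_cpg_scores. The ONT values deposited are percentages per strand and CpG (Dorado calls of 5-methylcytosine and 5-hydroxymethylcytosine, Winnowmap alignment, modbam2bed, ambiguous calls dropped by the authors) and no counts, so no Fisher's exact test and no ONT interval could be had. The files run in opposite directions, and both were converted to the assembly's coordinates. Bin means were unweighted over CpGs with at least 10 PacBio reads. The 5 stretches are runs of bins on 1 side of the dense threshold. Copies were matched along a path of distances on which each matched CpG scored 1 and each change of distance cost 2. Every gene overlapping the region was named, and bins were named as first or last, near an edge, or as the 3 most extreme. The region, the lists and the thresholds were chosen with earlier results of these data known. Region depth was 1282003 read observations over 48214 CpGs. The scripts (Python 3.11.15 with pandas 2.3.3, numpy 2.4.6, matplotlib 3.10.9 and scipy 1.17.1) were tested on simulated data.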

Additional observations from a re-analysis of the deposited data

How the results depend on the processing

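In all, 82 values were recomputed under 21 alternative settings, and 54 stayed close to the value in the text, that is within the 95% Wilson half-width of the pooled reads for PacBio (0.0689 points for the level, 0.305 for dense minus sparse), within 1 point for other levels, 0.05 for the depth ratio, 1.5 times for the bin count or 1 bin for a position. That half-width counts every read at every CpG as independent, although neighbouring CpGs share reads, and is not a spread of the bin means. No value reversed its sign. With each CpG counted once the means were 79.97% on PacBio, 58.2% on ONT, -21.8 points for ONT minus PacBio, 17.2 points for the gap, 34.7 points for dense minus sparse on PacBio and 21.8 on ONT. Bins of 10 kb gave 70.7% on PacBio, 36.2 and 22.9 points for dense minus sparse on PacBio and ONT, and 27 of 100 bins with a gap of at least 20 points. The estimated counts gave 71.3%, -19.4 points for ONT minus PacBio and 40.1 points for dense minus sparse. The plus row alone gave an ONT level of 45.6%, -24.6 points for ONT minus PacBio and 15.8 points for dense minus sparse, and the minus row alone gave 58.1%, -12.0 and 33.5 points for the same measures. The PacBio level was 69.2% with a minimum of 20 reads or with depth beyond the 5th or 95th percentile of the chromosome left out, which both left 182 bins, and 70.8% with at least 20 CpGs per bin. The 20-read and percentile settings gave identical values in this region, so the 82 values include that check under both names. Dense minus sparse on PacBio was 37.4 points with at least 20 CpGs per bin, and 38.6 and 38.0 points with dense set from 0.25 or 0.75 times the centromere median. A gap threshold of 10 points gave 129 bins and one of 30 points 0 bins. With 3 stretches the nearest change in CpG count moved to 13620001. The causes of these shifts were not tested beyond what each setting changes by construction. The division into 5 stretches and the runs without the 2 bins that hold CpGs under 10 reads were added after seeing the data. No paired analysis was possible because each platform had 1 library. PacBio depth was lowest in block 2, and the depth of ONT is unknown.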
